A study of Homo sapiens with 16 samples.

Results

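The mRNAs described here are those of ATF4, the transcription factor at the centre of the integrated stress response, and of 9 genes it is known to control or to work with: ATF5, DDIT3, TRIB3, ASNS, CHAC1, DDIT4, SESN2, PSAT1 and PHGDH. They were chosen by name, with no measured value in the rule, and all 10 were found among the 60107 genes that each count table lists. Their levels were followed in cytoplasmic RNA of human U2OS-TR cells, an osteosarcoma line that stably carries the tetracycline repressor, in 16 libraries of tags sequenced next to the poly(A) tail (QuantSeq REV). The study used the line to ask which mRNAs change when methylation of caps in the cytoplasm is blocked.

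All cells were split and grown for 48 h before any doxycycline was given, and were lysed 24 h after that. In the transgene line, U2OS-TR/ΔN-RNMT, doxycycline switches on ΔN-RNMT, a truncated and catalytically inactive form of the cap methyltransferase RNMT that stays in the cytoplasm, and 5 uninduced cultures were compared with 5 induced ones. This line is 1 clonal line, and its transgene is driven by a strong viral promoter placed under the tetracycline operator rather than by the gene's own promoter. In the parental U2OS-TR line, which has the repressor and no transgene, 3 cultures without doxycycline were compared with 3 cultures given it for 24 h. The study's methods give 1 μg/ml to treated cells only, whereas the protocol stored with the libraries lists that dose for all of them. Induced cells therefore differed from uninduced cells in doxycycline as well as in ΔN-RNMT, and the parental pair held doxycycline alone.

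In the integrated stress response, the kinases HRI, PKR, PERK and GCN2 phosphorylate the initiation factor eIF2, which lowers most translation but raises that of ATF4, through upstream reading frames in its mRNA. ATF4 protein then binds, with partner bZIP proteins, to amino acid response elements near genes of amino acid supply and of cell fate under stress. Doxycycline inhibits ribosomes of mitochondria as well as of bacteria, and stress of the mitochondria is passed to HRI by the protease OMA1 and the protein DELE1. The counts are of mRNA, and eIF2 phosphorylation, which the study examined by other means, and ATF4 protein cannot be read from them. By Western blotting, the study saw no evidence of more eIF2α phosphorylation in cells of the transgene line given doxycycline. In RNA of whole cultures, fewer cells with an mRNA and less of it in each cell cannot be told apart.

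The core of the response element, TGATGNAA, was searched on both strands in the RefSeq promoters of the 10 genes (GRCh38.p14, 250 bases before to 50 after each start site), because ATF4 and its partners act through it. It occurred in 1270 of 35116 promoters of that length (3.62%). That share is per promoter, and some of the 10 genes have more than 1. Of the 10 genes, ASNS and CHAC1 held a match, in 1 promoter each. These are shown in a 30-base window with the match in capitals. The ASNS window is chr7:97872458-97872487 on the minus strand, with the first base of the match at position -68 from the start site. Exons of 3 annotated ASNS transcripts overlap this window, none of them canonical, and the other ASNS promoter (chr7:97872116-97872415) held no match. The CHAC1 window is chr15:40953251-40953280 on the plus strand, and its match, read in the reverse orientation, starts at position -209.
ASNS: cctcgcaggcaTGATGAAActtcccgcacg
CHAC1: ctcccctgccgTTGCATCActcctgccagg
The palindrome TGACGTCA, a cAMP response element that ATF proteins can also bind, occurred in 649 of all promoters (1.85%) and in none of those of the 10 genes. A match describes the letters only, and no match says nothing of sites outside this window.

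RNMT, from which the transgene was made, was between 55.6 and 112 CPM in the uninduced libraries and between 266 and 458 CPM in the induced ones, and rose 4.66-fold (log2 fold change 2.22 ± 0.23 SE, edgeR adjusted P = 0.0081). CPM are gene counts relative to the total of their library, after TMM scaling that was done separately in each line. Gene counts per library ranged from 18991617 to 23251834 in uninduced and from 12527183 to 20781875 in induced libraries, so depth differed between these groups. Induced replicates 2 and 4 reached into the uninduced range, and replicate 2 was the deepest induced library. In the parental line gene counts ranged from 1473286 to 3214808. In many genes, the levels of uninduced replicate 5 and of induced replicate 2 fell in the gap that separates the remaining uninduced from the remaining induced libraries, and the effect of leaving them out is given beside the results. RNMT was at 112 CPM in uninduced replicate 5, the highest of its group, and at 360 CPM in induced replicate 2, so both lay on the side of their labels, and whether cells or RNA of the groups were mixed in them was not tested. The lines were sequenced at different facilities, on different instruments and with different read lengths, so line and sequencing cannot be told apart. Per count on a gene, the parental libraries held 1.11 to 1.50 counts outside annotated genes and the transgene libraries 0.0744 to 0.106. Of 9 osteoblast and mesenchyme markers, RUNX2, COL1A1, SPARC, VIM and CDH2 were detected while COL1A2 and BGLAP were at or near 0. ALPL and SPP1 were low too. ALPL was at most 1.21 CPM in any library, and SPP1 at most 0.954 CPM in the transgene line and 8.96 CPM in the parental line. The 9 markers summed to 522 to 785 CPM in uninduced and 645 to 1108 CPM in induced libraries. In parental libraries they summed to 939 to 1259 CPM without and 556 to 1482 CPM with doxycycline. VIM and RUNX2 rose on induction. The 10 markers of epithelium, blood, endothelium and muscle summed to between 6.49 and 18.7 CPM in any library. The T cell marker CD3E was at 0 throughout, but the epithelial marker EPCAM was detected. EPCAM was the highest of the 10 in the transgene line, at 4.89 to 14.3 CPM (101 to 302 tags). RUNX2 was at 4.45 to 20.7 CPM in the same libraries. In parental libraries EPCAM was at 1.83 to 10.4 CPM, from 3 to 29 tags. The part of these differences in the results below was not tested.

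Induction of ΔN-RNMT was accompanied by lower levels of ATF4, DDIT3, ASNS and SESN2. ATF4 and ASNS fell most, by 2.09-fold and 2.11-fold, and DDIT3 and SESN2 fell by 1.58-fold and 1.56-fold. The other 6 genes did not pass the test, and no gene of the 10 was called higher. Across all 13038 genes tested, 39.8% were called in either direction and 19.8% were called lower, so the 10 genes were called about as often as genes in general (40%), and all 4 of their calls were lower. Their log2 fold changes had a median of -0.47, beside 0.04 for all genes tested. With offsets for GC content these medians were -0.12 and -0.03, so most of the shift of the 10 genes was lost in that fit.

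**Figure D1:**
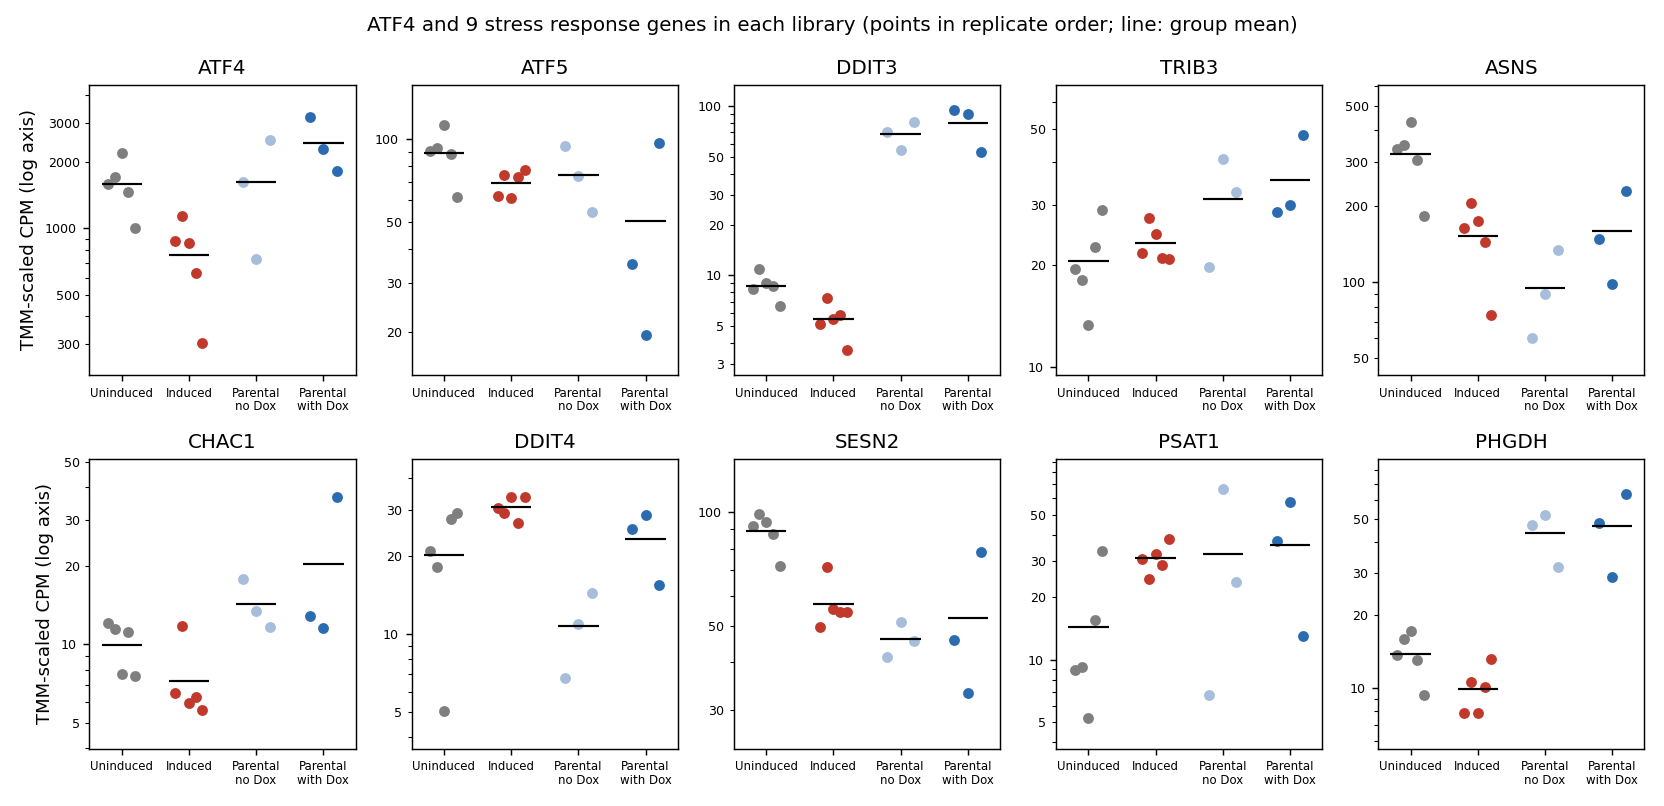
TMM-scaled CPM of the 10 genes on a log axis, 1 point per library in replicate order, with the arithmetic mean of each group as a line (uninduced and induced, n = 5 each; parental without and with doxycycline, n = 3 each). SESN2 is the gene whose uninduced and induced points do not overlap, and ATF4 and ASNS trace the same pattern over the 10 transgene libraries.

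Among the transcription factors, ATF4 (ENSG00000128272, chr22:39519695-39522683, plus strand, GRCh38) stood at 1593, 1717, 2205, 1455 and 1003 CPM in uninduced replicates 1 to 5. In induced replicates 1 to 5 it stood at 874, 1142, 862, 626 and 305 CPM. Uninduced replicate 5 lay below induced replicate 2, and the groups overlapped only there. The means were 1595 ± 435 and 762 ± 314 CPM (SD, n = 5 each), with a log2 fold change of -1.07 ± 0.32 (SE, edgeR adjusted P = 0.0251). The call was lost when any of uninduced replicates 1, 2 and 3 or induced replicates 1, 3 and 4 was left out, and over the 10 such fits the estimate ran from -1.26 to -0.86 and the adjusted P up to 0.0631. The annotation holds 4 pseudogenes of ATF4, and tags that aligned to several places are listed apart from the gene counts. These amounted to 0.561 to 1.33 per gene count in the transgene libraries. The share was highest in induced replicate 5, where ATF4 was lowest, and next in uninduced replicate 3 (1.01), where ATF4 was highest. Its part in the level of ATF4 was not tested.

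ATF5 (ENSG00000169136, chr19:49928702-49933935, plus strand), a related bZIP factor whose mRNA is likewise translated preferentially under stress, was at 90.8, 93.1, 113, 88.6 and 61.8 CPM without induction and at 62.5, 73.9, 61.5, 73.1 and 77.1 CPM with it. The induced libraries were close together, and uninduced replicate 5 lay within their range. Its means of 89.4 ± 18.1 and 69.6 ± 7.14 CPM (SD, n = 5 each) gave a log2 fold change of -0.36 ± 0.17 (SE, edgeR adjusted P = 0.0974). Without uninduced replicate 5 it was called, at -0.48 (adjusted P = 0.0112, where the 10 fits without 1 library reached 0.195), and with offsets for GC content the value was 0.02. ATF5 overlaps NUP62 and IL4I1 on the opposite strand and the microRNA gene MIR4751 on its own. Whether counting used strand is not given in the sources used here.

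DDIT3 (CHOP; ENSG00000175197, chr12:57516588-57521737, minus strand), a bZIP factor that ATF4 induces and that promotes cell death under lasting stress, was at 8.28, 10.9, 9.06, 8.71 and 6.59 CPM in uninduced cells. In induced cells it was at 5.15, 7.38, 5.52, 5.85 and 3.62 CPM. Only induced replicate 2 reached above the lowest uninduced library, which was replicate 5, as for ATF4. DDIT3 fell from 8.72 ± 1.56 to 5.50 ± 1.35 CPM (SD, n = 5 each), a log2 fold change of -0.66 ± 0.21 (SE, edgeR adjusted P = 0.0297). It missed the threshold without any of uninduced replicates 1, 2 and 4 or induced replicates 1, 3, 4 and 5, with adjusted P up to 0.0768 over the 10 fits, and also under scaling by total counts (-0.42, adjusted P = 0.0841, the highest of the 9 other fits). Each value rests on 61 to 187 tags, and DDIT3 overlaps MARS1 and MBD6 on the opposite strand. On its own strand it overlaps the protein-coding gene ENSG00000285133 and the microRNA gene MIR616.

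TRIB3 (ENSG00000101255, chr20:362835-397559, plus strand), a pseudokinase that ATF4 and CHOP induce and that damps their activity, was at 19.3, 18.0, 13.3, 22.5 and 29.0 CPM before induction. It was at 21.6, 27.4, 24.6, 20.9 and 20.8 CPM after it. The groups overlapped over most of their range, with means of 20.4 ± 5.82 and 23.1 ± 2.89 CPM (SD, n = 5 each). The difference was within the spread of the replicates (log2 fold change 0.17 ± 0.20 SE, edgeR adjusted P = 0.485).

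Of the genes of amino acid synthesis, ASNS (asparagine synthetase; ENSG00000070669, chr7:97851677-97872542, minus strand, 13 exons in its canonical transcript), which carries the element printed above, was at 337, 351, 432, 306 and 183 CPM in uninduced libraries. In induced libraries it was at 164, 206, 175, 144 and 74.1 CPM. Induced replicate 2 alone lay above uninduced replicate 5, the same crossing as for ATF4. The means were 322 ± 90.5 and 153 ± 49.3 CPM (SD, n = 5 each), a log2 fold change of -1.08 ± 0.28 (SE, edgeR adjusted P = 0.0186). ASNS was called lower in all 9 other fits and in all 10 fits that left out 1 library, and its log2 fold change over those ranged from -1.41 to -0.84. It has 4 annotated pseudogenes and overlaps a long noncoding RNA on its own strand.

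PSAT1 (phosphoserine aminotransferase of serine synthesis; ENSG00000135069, chr9:78297125-78330093, plus strand) had the widest range among uninduced libraries by highest over lowest (6.40-fold), at 8.89, 9.24, 5.22, 15.5 and 33.5 CPM. Induced libraries were at 30.7, 24.4, 32.3, 28.8 and 38.0 CPM, so 4 of 5 uninduced libraries lay below every induced one and replicate 5 lay among them. The means were 14.5 ± 11.2 and 30.8 ± 4.99 CPM (SD, n = 5 each) and the log2 fold change was 1.09 ± 0.41 (SE, edgeR adjusted P = 0.0525). Without uninduced replicate 5 the log2 fold change was 1.65 (adjusted P = 0.000534), and without induced replicate 2 it was 1.16 (adjusted P = 0.0487), while the 10 such fits reached an adjusted P of 0.114. PSAT1 was also called higher in 6 of 9 other fits, with adjusted P from 0.0147 to 0.0926 over the 9. It has 4 annotated pseudogenes.

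PHGDH (ENSG00000092621, chr1:119648411-119744218, plus strand), which catalyses the first step of the same serine pathway, was at 13.7, 16, 17.2, 13 and 9.33 CPM without induction. With induction it was at 7.83, 10.5, 7.87, 10.0 and 13.1 CPM. Induced replicate 5 was the highest of its group, where ATF4, ASNS and DDIT3 were lowest. The means of 13.8 ± 3.03 and 9.88 ± 2.19 CPM (SD, n = 5 each) gave a log2 fold change of -0.48 ± 0.21 (SE, edgeR adjusted P = 0.0767). It was called without uninduced replicate 5 (-0.61, adjusted P = 0.0137) and without induced replicate 5 (-0.60, adjusted P = 0.0482), out of 10 such fits that reached an adjusted P of 0.166.

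Of the genes that act on redox state and growth, SESN2 (sestrin 2, an inhibitor of mTORC1 signalling; ENSG00000130766, chr1:28259518-28282491, plus strand) was at 91.9, 98.8, 94.0, 87.5 and 71.9 CPM in uninduced cells. In induced cells it was at 49.6, 71.7, 55.5, 54.2 and 54.3 CPM. The groups did not overlap, though the lowest uninduced and the highest induced library, again replicates 5 and 2, were nearly level, and such a gap was found in 7.30% of all genes tested. SESN2 fell from 88.8 ± 10.3 to 57.1 ± 8.48 CPM (SD, n = 5 each), a log2 fold change of -0.64 ± 0.15 (SE, edgeR adjusted P = 0.0175). It was called in all 10 fits that left out 1 library, but with GC offsets its log2 fold change was -0.28 (adjusted P = 0.0724, where the 9 other fits ran from 0.000734 to 0.114).

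CHAC1 (ENSG00000128965, chr15:40952962-40956512, plus strand), which breaks down glutathione and carries the other element printed above, was at 12.0, 11.5, 7.67, 11.2 and 7.55 CPM before induction. After it, the values were 6.49, 11.8, 5.96, 6.27 and 5.58 CPM, of which 4 lay below every uninduced library and replicate 2 among the highest. The means were 9.98 ± 2.19 and 7.21 ± 2.56 CPM (SD, n = 5 each), with a log2 fold change of -0.46 ± 0.24 (SE, edgeR adjusted P = 0.132). Without induced replicate 2 the value was -0.72 (adjusted P = 0.0135), where the 10 such fits reached an adjusted P of 0.246.

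DDIT4 (REDD1, another inhibitor of mTORC1 signalling, induced by several stresses; ENSG00000168209, chr10:72273919-72276036, plus strand) was at 21.0, 18.2, 5.06, 27.8 and 29.3 CPM in uninduced and at 30.6, 29.4, 33.8, 26.8 and 34.0 CPM in induced libraries. The uninduced libraries were spread 5.79-fold and the induced ones 1.27-fold. Means of 20.3 ± 9.68 and 30.9 ± 3.04 CPM (SD, n = 5 each) gave a log2 fold change of 0.61 ± 0.35 (SE, edgeR adjusted P = 0.172).

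The fall of ATF4 was matched library by library by that of ASNS. The SD over the 10 transgene libraries of the log2 ratio of ASNS to ATF4 was 0.140, where the median over 13037 genes was 0.889, and ASNS ranked 3 of 13037 in likeness to ATF4. This measure does not depend on how libraries are scaled. There were between 4.11 and 5.54 ATF4 tags per ASNS tag in the 10 libraries. LHX1-DT (0.127), EEF1D (0.133), LINC01910 (0.149) and HOXC9 (0.178) made up the other 4 of the nearest 5. Of the remaining genes, DDIT3 ranked 554 (0.429), SESN2 1758 (0.553), CHAC1 2469 (0.603), ATF5 3918 (0.699), PHGDH 4580 (0.744) and TRIB3 7714 (0.993). DDIT4 (1.49, rank 11158) and PSAT1 (1.74, rank 11969) were the least like ATF4, and PSAT1 was high in the libraries where ATF4 was low. The libraries share the split between groups, depth and base composition, so these are descriptions of 10 libraries.

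**Figure D2:**
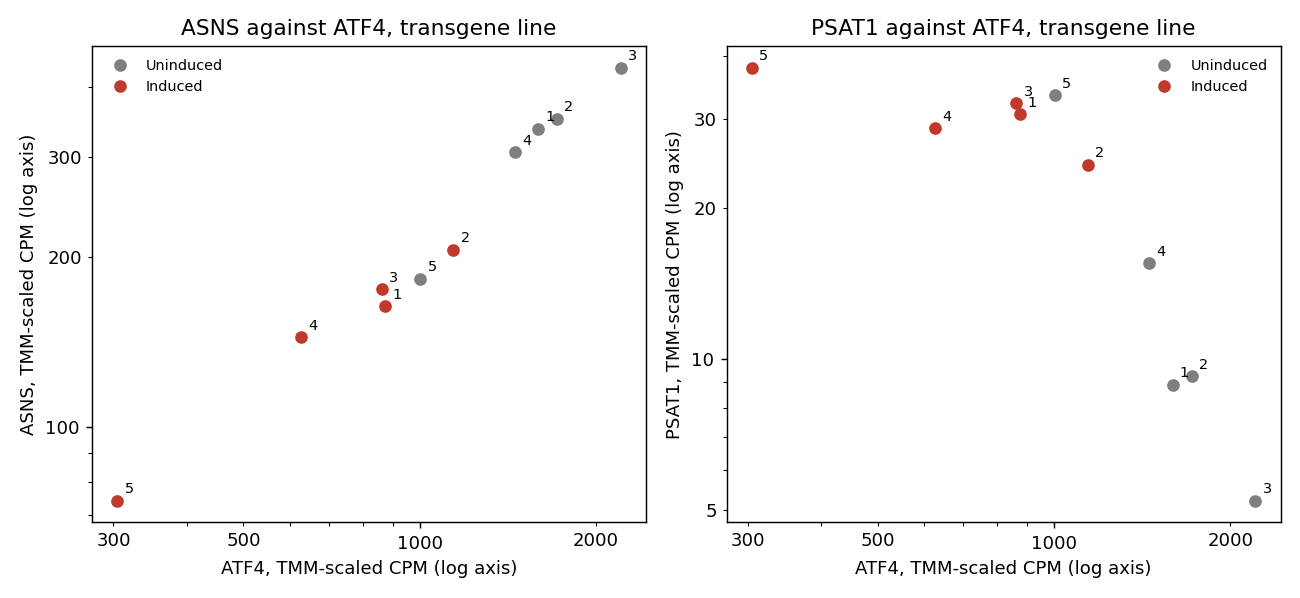
TMM-scaled CPM of ASNS (left) and PSAT1 (right) against ATF4 in the 5 uninduced and 5 induced transgene libraries, on log axes, with replicate numbers. ASNS followed ATF4 through both groups, including uninduced replicate 5 and induced replicate 2, while PSAT1 ran from 5.22 CPM where ATF4 was highest to 38.0 CPM where it was lowest.

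In parental cells, doxycycline without the transgene gave no call among the 10 genes and none among 9124 genes tested (0% called by edgeR). Over all genes 267 had an unadjusted P below 0.05, and DESeq2 called 1. The estimates of ATF4 and ASNS were above 0 here, at 0.58 ± 0.53 and 0.74 ± 0.45 (log2 fold change, SE), and the median of the 10 was 0.20 beside -0.01 for all genes. All 10 had an adjusted P of 0.997. Their standard errors ran from 0.39 to 0.73, against 0.15 to 0.41 in the transgene line, so a change of the size seen there could be missed at this depth and number of libraries.

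ATF4 was at 1627, 727 and 2524 CPM in untreated parental replicates 1 to 3 and at 3185, 2278 and 1817 CPM in treated ones. ASNS was at 60.3, 89.6 and 135 CPM without doxycycline and at 149, 98.5 and 231 CPM with it. In both genes the groups overlapped. ATF4 and ASNS kept no such narrow ratio in these libraries, which had 7.88 to 27 ATF4 tags per ASNS tag and an SD of the log2 ratio of 0.782. ATF4 was counted by 1193 to 8918 tags and ASNS by 98 to 450.

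DDIT4 was the gene whose parental groups did not overlap, a pattern of 9.52% of all genes tested. It was at 6.76, 11 and 14.4 CPM without doxycycline and at 25.4, 28.7 and 15.5 CPM with it, from 11 to 72 tags per library. Its log2 fold change was 1.10 ± 0.49 (SE, edgeR unadjusted P = 0.0468, adjusted P = 0.997). DDIT3 was at 70.1, 54.9 and 80.9 CPM and then at 95.4, 90.5 and 53.8 CPM, a log2 fold change of 0.22 ± 0.39 (SE).

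ATF5 was at 94.7, 73.8 and 54.5 CPM in untreated and at 35.4, 19.5 and 97.0 CPM in treated parental cells, a log2 fold change of -0.57 ± 0.56 (SE). The highest treated value came from replicate 3, which also stood above its group in ASNS and in the next 4 genes. CHAC1 was at 17.8, 13.4 and 11.7 CPM and then at 12.9, 11.6 and 36.7 CPM. SESN2 was at 41.2, 51.2 and 45.5 CPM and then at 45.7, 33.1 and 78.2 CPM. CHAC1 degrades glutathione and SESN2 restrains mTORC1, and both were highest in treated replicate 3. TRIB3 was at 19.7, 40.8 and 32.6 CPM and then at 28.6, 29.9 and 48.1 CPM. PHGDH was at 47.3, 51.8 and 31.7 CPM and then at 48.2, 28.7 and 63.6 CPM. Without treated replicate 3, the log2 fold changes turned from 0.48 to -0.26 in CHAC1, from 0.18 to -0.27 in SESN2, from 0.18 to -0.12 in TRIB3 and from 0.10 to -0.23 in PHGDH.

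PSAT1, which serves the same pathway as PHGDH, was at 6.76, 66.5 and 23.7 CPM without doxycycline and at 37.1, 57.4 and 13 CPM with it. Untreated parental libraries thus spanned 9.82-fold, and the log2 fold change was 0.17 ± 0.73 (SE). Among the treated libraries PSAT1 was lowest in replicate 3, where ASNS and PHGDH were highest.

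**Figure D3:**
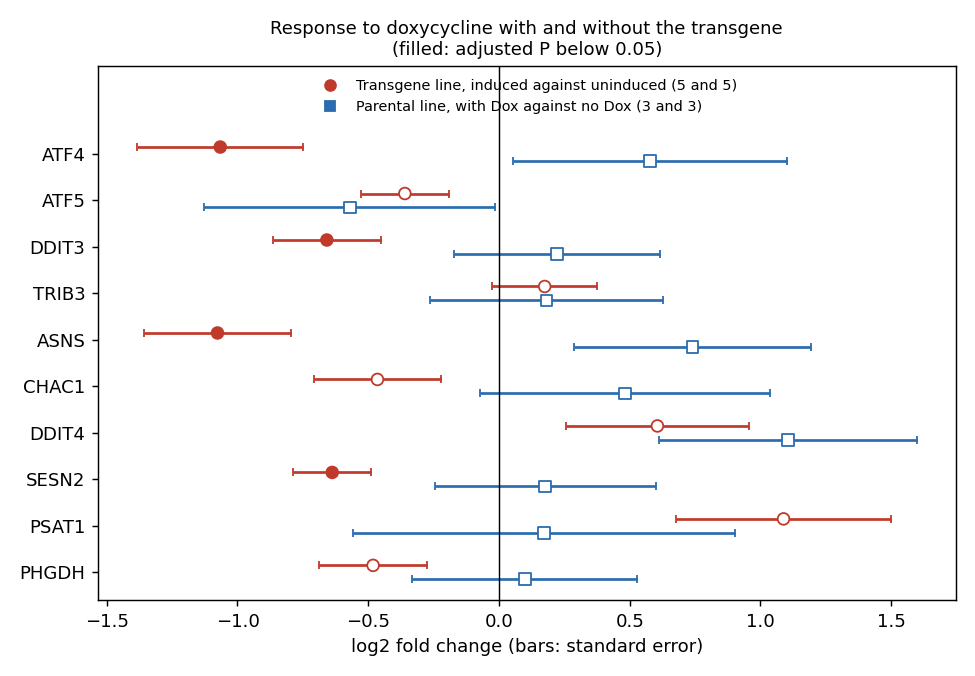
Log2 fold changes (x axis) of the 10 genes with their standard errors, induced against uninduced in the transgene line (circles, n = 5 each) and with against without doxycycline in the parental line (squares, n = 3 each), with filled symbols at an adjusted P below 0.05. ATF4 and ASNS lie near -1.07 and -1.08 in the transgene line and at 0.58 and 0.74 in the parental line, whose error bars are wider.

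Whether the lines responded differently was tested as an interaction over all 16 libraries. ASNS passed, with a response in the transgene line lower by 2.07 ± 0.54 than in the parental line (log2 scale, SE, edgeR adjusted P = 0.0496), which is 4.19-fold. Over 12265 genes, 2.98% were called and 2.20% were called lower. ATF4 had a difference of -1.87 ± 0.60 (adjusted P = 0.0775), DDIT3 of -1.10 ± 0.39 (adjusted P = 0.0945) and SESN2 of -1.05 ± 0.38 (adjusted P = 0.101), which did not pass. ATF4, DDIT3, SESN2 and ASNS had an unadjusted P below 0.05. The median difference of the 10 genes was -0.93 beside -0.09 for all genes tested, and PSAT1 alone lay above 0 (0.73 ± 0.83, adjusted P = 0.591). With GC offsets the medians were -0.51 and -0.05.

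The ASNS difference kept its sign in all 25 other fits but was past the threshold in 8 of them, with adjusted P from 0.00854 to 0.142. It was called without uninduced replicate 5, induced replicate 2, untreated parental replicate 3 or treated parental replicate 2, and was not called without any of the other 12 libraries. With total counts as the scaling, which moved the median of all genes to 0.49, it was -1.39 (adjusted P = 0.0753). The remaining differences were -1.17 ± 0.56 for CHAC1, -0.82 ± 0.44 for PHGDH, -0.70 ± 0.57 for DDIT4, -0.22 ± 0.40 for TRIB3 and -0.03 ± 0.54 for ATF5 (log2 scale, SE), with adjusted P of 0.197, 0.241, 0.44, 0.759 and 0.992.

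The other genes of the pathway were described by role, from lists of 101 tested genes. Of these, 47 were called in the transgene line, 29 higher and 18 lower. That is 46.5% called, 28.7% higher and 17.8% lower, beside 39.8%, 20.0% and 19.8% of all genes tested. All 47 were called in the same direction without uninduced replicate 5 and without induced replicate 2. Leaving out any 1 of the other 8 libraries kept between 18 and 36 of the 47, fewest without induced replicate 1, while the calls over all genes fell from 5183 to between 1889 and 3762. For 10 of the 47 genes the call thus held in 2 of the 10 fits without 1 library, those without uninduced replicate 5 or induced replicate 2, and the number of such fits is given below for the named genes that kept the call in 5 or fewer. In the parental line no gene of any list was called, and in the test of the difference 4 were: PYCR1, HSPA5, CRELD2 and TRAP1. Of the 25 other fits of the difference, HSPA5 was called in 15, CRELD2 in 6, PYCR1 in 5 and TRAP1 in 4.

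Upstream of ATF4, 1 of 4 eIF2 kinase mRNAs was called, beside 39.8% of all genes tested, and 3 of the 4 had an unadjusted P below 0.05 in edgeR. EIF2AK2 (PKR, sensor of double-stranded RNA) rose from 33.6 ± 5.40 to 47.8 ± 7.06 CPM (SD, n = 5 each; log2 fold change 0.51, adjusted P = 0.0313), and was at 0.05 with GC offsets (adjusted P = 0.791). EIF2AK1 (HRI) was at -0.01 (adjusted P = 0.949), EIF2AK3 (PERK) at 0.77 (adjusted P = 0.0616) and EIF2AK4 (GCN2) at -0.60 (adjusted P = 0.0713). The 2 relay genes to HRI moved apart: OMA1 rose by 1.16 (adjusted P = 0.019) and DELE1 fell by 0.59 (adjusted P = 0.0321) on the log2 scale. Of 13 subunits of eIF2, of its exchange factor eIF2B and of its phosphatases, 3 rose and 1 fell. PPP1R15B (CReP, the constitutive eIF2 phosphatase subunit) rose from 12.1 ± 5.04 to 30.6 ± 12.3 CPM (SD, n = 5 each; log2 fold change 1.34, adjusted P = 0.02), PPP1CB by 1.11 and EIF2B1 by 0.79, and PPP1CA fell by 0.68. Without 1 library, EIF2B1 was called in 2 of 10 fits, DELE1 and PPP1CA in 3 each and EIF2AK2 in 4.

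Of 9 tested bZIP factors that can pair with ATF4, 4 rose and 1 fell, and the list's median was 0.63. CEBPG, a frequent partner of ATF4 at response elements, rose from 16.3 ± 5.79 to 35.3 ± 9.41 CPM (SD, n = 5 each; log2 fold change 1.11, adjusted P = 0.0176). ATF3, itself a target of ATF4, was at 8.17 ± 4.38 and then 15.8 ± 4.31 CPM (SD, n = 5 each; 0.95, adjusted P = 0.0359), and CEBPD rose by 1.01. JDP2, a repressor of the same family, fell by 1.24 (adjusted P = 0.0176). Without 1 library, ATF3 was called in 2 of 10 fits, with a log2 fold change of 1.33 without uninduced replicate 5, and CEBPD in 5.

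Among the target genes of amino acid supply, directions were mixed. Of 9 tested transporters none rose and 2 fell, SLC43A1 by 0.79 and SLC1A4 by 0.63 on the log2 scale. Of 6 enzymes of serine, glycine and one-carbon metabolism, 2 rose and 1 fell: SHMT1 by 1.60, mitochondrial MTHFD2 by 1.12, and SHMT2, which fell by 0.44. MTHFD2 went from 104 ± 53.4 to 227 ± 50.7 CPM (SD, n = 5 each; adjusted P = 0.022). Without 1 library, SHMT1 and SHMT2 were called in 2 of 10 fits each and MTHFD2 in 5, and SHMT1 was at 2.38 without uninduced replicate 5. Of 6 other amino acid enzymes, CTH of cysteine synthesis rose by 1.62 from few tags (0.17 to 5.52 CPM in the 10 libraries), whereas PYCR1 of proline synthesis fell by 1.08 and GOT1 fell by 0.40. PYCR1 went from 1222 ± 424 to 576 ± 146 CPM (SD, n = 5 each; adjusted P = 0.0176). Of 13 aminoacyl-tRNA synthetases and related genes, 3 rose and 3 fell, with XPOT at 1.48, TARS1 at 0.99 and IARS1 at 0.87 against WARS1 at -0.96, SARS1 at -0.69 and YARS1 at -0.43. SARS1 and YARS1 were called in 2 of 10 fits without 1 library, and CTH and GOT1 in 3.

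Among 14 other stress targets, 4 rose and 2 fell. TXNIP rose by 1.60, ERO1A of oxidative protein folding by 0.62 and GADD45A by 0.61, while HMOX1 (haem oxygenase) fell by 1.29 and GDF15, a secreted stress factor, fell by 0.68 on the log2 scale. GDF15 went from 27.4 ± 2.54 to 17.1 ± 5.42 CPM (SD, n = 5 each; adjusted P = 0.023), and was at -0.25 (adjusted P = 0.307) with GC offsets. Without 1 library, TXNIP was called in 2 of 10 fits, ERO1A and GADD45A in 4 each and GDF15 in 5, and TXNIP was at 2.62 without uninduced replicate 5.

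Of 16 endoplasmic reticulum chaperones and targets of XBP1 or ATF6, which belong to the other arms of the unfolded protein response, 8 rose and 3 fell, with a list median of 0.76. DNAJB9 rose by 2.13, MANF by 1.69 and EDEM1 by 1.58, and SDF2L1 fell by 1.08, HSPA5 (BiP) by 0.84 and CRELD2 by 0.50 on the log2 scale. EDEM1, SDF2L1 and HSPA5 were called in all 10 fits without 1 library, whereas MANF was called in 2 of them and DNAJB9 and CRELD2 in 3 each, and without uninduced replicate 5 MANF was at 2.63 and DNAJB9 at 3.11. HSPA5 went from 1035 ± 200 to 580 ± 95.0 CPM (SD, n = 5 each; adjusted P = 0.0176) in the transgene line and from 418 ± 103 to 969 ± 151 CPM (SD, n = 3 each; log2 fold change 1.21 ± 0.41 SE, adjusted P = 0.997) in the parental line. Of 9 mitochondrial chaperones and proteases, HSPA9 rose by 0.93 and CLPX by 0.78, and TRAP1 fell by 0.90 and LONP1 by 0.62, the last called in 3 of 10 fits without 1 library.

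The 47 calls differed in how firmly they held. PPP1CB, CEBPG, JDP2, SLC43A1, PYCR1, WARS1, HMOX1, HSPA5, SDF2L1, EDEM1, HERPUD1, HSPA9, TRAP1 and CLPX were called in the same direction in all 9 other fits and all 10 fits without 1 library. Those 14 comprised 6 that rose and 8 that fell. With GC offsets 19 of the 47 were not called, and KLHL24 alone of the 47 changed sign in any fit.

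**Figure D4:**
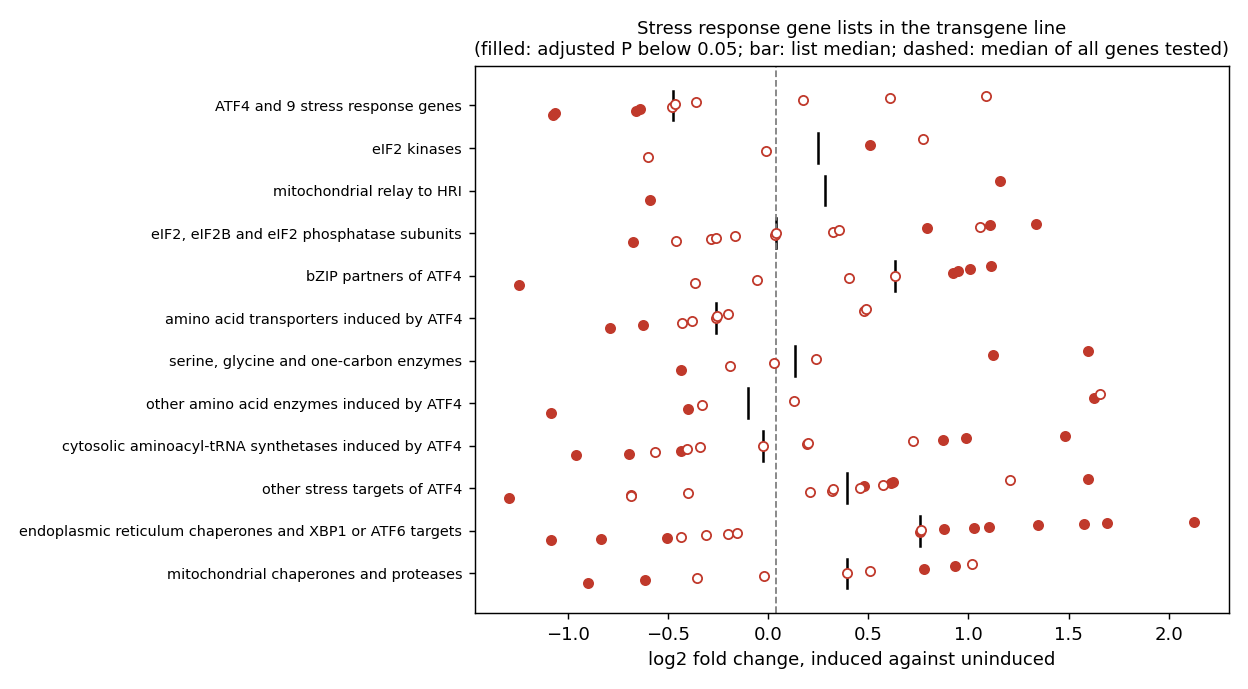
Log2 fold changes, induced against uninduced (n = 5 each), of the tested genes of each list, 1 point per gene and filled at an adjusted P below 0.05, with the list median as a black bar and the median of all genes tested (0.04) as a dashed line. ATF4 and its 9 companions have a median of -0.47, amino acid transporters one of -0.26, and endoplasmic reticulum chaperones one of 0.76.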

How the data were processed

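The authors deposited unnormalized tag counts per Ensembl gene for each of 16 libraries, produced by the REV Human workflow of Lexogen on GRCh38. The aligner, the annotation release, the use of strand and the handling of duplicate tags are not given in the sources used here. The 92 spike-in entries held 0 counts, and they and 5 summary entries that name no gene were left out. Symbols and coordinates came from GENCODE release 44 and promoters from RefSeq. Summary entries for tags outside genes amounted to 0.0744 to 1.50 per gene count.

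Tests used genes whose base mean exceeded 20 and edgeR 4.0.16 (TMM, quasi-likelihood) in R 4.3.3, adjusted by Benjamini-Hochberg over all genes tested and called below 0.05. The standard error (SE) is the log2 fold change divided by the root of F. Replicates are separate cultures according to the study. Alternatives were DESeq2 1.42.0, other scalings and filters, GC offsets, a replicate block, 1 surrogate variable (sva 3.50.0) and leaving out each library. Fits were tested on simulated data. Same-numbered libraries did not deviate together on average (mean r 0.026 in the transgene and -0.0598 in the parental line), so the numbers were not taken as pairs. Single pairs ran from r -0.37 to 0.63 in the transgene line and from -0.42 to 0.24 in the parental line, and this does not exclude a pairing.

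The genes and lists were chosen with earlier results of these data known. Named were the 10 genes, from each list up to 3 called genes per direction, every gene of a list of at most 4, and the 5 nearest to ATF4. HERPUD1 and KLHL24 were named after their values were seen. A further marker gene is not reported here.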

Additional observations from a re-analysis of the deposited data

Results flagged for a closer look

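Of the 20 sets of 5 libraries examined (10 genes in uninduced and in induced cells), 2 held a library that stood apart. Both were among the 10 induced sets, and in both the library was induced replicate 2. CHAC1 was at 11.76 CPM there, and 5.58 to 6.49 CPM in the other 4. SESN2 was at 71.69 CPM there, and 49.6 to 55.5 CPM in the other 4. Its gap to the next library made up 0.853 of the range of the group in CHAC1 and 0.732 in SESN2, past the critical value of Dixon's test at 95%. At that level about 1 set in 20 is marked by chance, but the sets come from the same libraries and are not independent.

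For ASNS and for 4 of the listed pathway genes, the response to doxycycline passed the interaction test between the transgene line and the parental line in edgeR, though 4 of the 5 lost the call in most other fits. On the log2 scale the response in the transgene line was lower than that in the parental line by values of -2.067 for ASNS (adjusted P = 0.0496), -2.137 for PYCR1 (0.045), -2.28 for HSPA5 (0.0258), -1.602 for CRELD2 (0.0461) and -1.858 for TRAP1 (0.0482). In each of the 5 the estimate was below 0 in the transgene line and above 0 in the parental line, where it was not called. The sign held in all 25 other fits of each gene, but the call held in 8 for ASNS, 5 for PYCR1, 15 for HSPA5, 6 for CRELD2 and 4 for TRAP1, with adjusted P up to 0.142, 0.135, 0.124, 0.134 and 0.138. In 9 of the 16 fits without 1 library edgeR called no gene at all for this difference, with 2375 to 2901 genes at an unadjusted P below 0.05. The lines also differ in instrument, facility and read length, which cannot be told apart from the transgene in this test.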

How the results depend on the processing

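In the transgene line, 4 of the 10 genes were called, and the other 9 fits gave 3 to 5. Of all genes tested, those 9 fits called from 17.3% (no filter) to 45.7% (DESeq2), and 26.7% with GC offsets, against 39.8%. ASNS and ATF4 were called lower in all 9. PSAT1 became a call with DESeq2 (1.06), total counts (1.29), no filter (1.08), the replicate block (1.36), GC offsets with the block (1.05) and the surrogate variable (1.16). DDIT3 was lost with total counts (-0.42) and no filter (-0.67), and SESN2 with GC offsets (-0.28, also with the block). ATF5 turned to 0.020 with GC offsets and to 0.025 with the block added. The replicate block takes same-numbered libraries as pairs, though the study's methods describe no pairing. With it, 5 of the 10 genes were called on induction, 0 in parental cells and 1 between the lines. Without it these counts were 4, 0 and 1. Of all genes tested, the block called 39.8%, 0% and 1.81%, against 39.8%, 0% and 2.98% without it. Leaving out 1 library gave 2 to 7 calls among the 10 in the transgene line (7 without uninduced replicate 5, 6 without induced replicate 2), where all genes called ran from 1889 to 7614. RNMT stayed a call in each fit.

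No parental fit called any of the 10. There, total counts turned SESN2 to -0.0044 and PHGDH to -0.074, and the surrogate variable turned PSAT1 to -0.075. Without 1 library, TRIB3 ran from -0.12 to 0.51, CHAC1 from -0.26 to 0.85, SESN2 from -0.27 to 0.50, PSAT1 from -0.29 to 1.29 and PHGDH from -0.23 to 0.42.

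In the difference between lines, DESeq2 called 2 genes, ASNS and ATF4 (-1.80). DESeq2 size factors, total counts, filterByExpr, no filter and the surrogate variable called 0, with ASNS at -1.99, -1.39, -1.87, -1.84 and -1.95, and 4, 2, 4, 3 and 4 of the 10 genes had an unadjusted P below 0.05 in edgeR. Leaving out 1 library gave 0 to 4 calls. ATF5 was 0.032 with DESeq2, 0.035 with its size factors, 0.68 with total counts, 0.15 with filterByExpr, 0.18 with no filter, 0.29 with the block, 0.51 and 0.65 with GC offsets without and with the block, and 0.31 with the surrogate variable. TRIB3 was 0.36 with total counts and 0.19 and 0.18 with GC offsets without and with the block. Without 1 library, ATF5 ran from -0.27 to 0.87, TRIB3 from -0.33 to 0.18 and PSAT1 from -0.18 to 1.34. The cause of these changes was not tested. Over all genes, the difference called 365, but 1489 with DESeq2, 236 with its size factors, 3 with filterByExpr, 150 without a filter, 222 with the block, 189 with GC offsets and the block, and 0 to 2285 without 1 library. Total counts made 74.2% of all transgene calls higher, against 50.2%, and moved the median of all genes from 0.04 to 0.28. Of the counts of called genes per list and direction over the other fits of all 3 comparisons, 604 stayed within 1.5 times of the main value and 98 did not. The 604 include counts of 0 that stayed 0. In the main fits every list count was 0 in the parental line and most were 0 in the difference. The 604 are therefore no measure of how stable the transgene counts were. DDIT3 and the parental values of most of the 10 genes rest on few tags, which limits their precision.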
